A study of Mus musculus with 8 samples.

Results

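Acetylation of histone H4, a mark carried by nucleosomes at active promoters and enhancers, was examined over 33 genes that make or regulate sterols and fatty acids, out of 21887 protein-coding genes. The genes were taken by symbol: 24 belong to the sterol arm and 9 to the fatty acid arm, and all 33 passed the filter on low values, as did 14589 of all genes. The cells were macrophages grown from the bone marrow of C57BL/6 mice (BMDM), and the mark was mapped by chromatin immunoprecipitation with an acetyl-H4 antibody and sequencing (ChIP-seq). Cells were untreated, given PAM3 (the lipopeptide PAM3CSK4, an agonist of the Toll-like receptors TLR1 and TLR2), given 25HC (25-hydroxycholesterol, an oxysterol), or exposed first to 25HC and later to PAM3. The 4 groups each held 2 libraries, 1 from mouse A and 1 from mouse B. No group carried a mutation or transgene per the labels. The stimulation time reads 18, with no unit, in each library with PAM3 and 0 in each library without it, so PAM3 and that time cannot be told apart.

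Sterol regulatory element-binding proteins (SREBPs) are transcription factors made as membrane proteins of the endoplasmic reticulum, where they are bound to SCAP. When sterols run low, SCAP carries them to the Golgi, where proteases free the part that enters the nucleus and binds promoters of lipid synthesis genes. Oxysterols such as 25HC bind the INSIG proteins, which then keep SCAP in place. In macrophages, Toll-like receptor signals and this pathway are both known to reshape lipid synthesis.

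The measure was called length: the base pairs covered by deposited peaks of a library between 5 kb before and 5 kb after the gene (GRCm38). It records how far acetylation was called, not how strong it was. Values below are given for mouse A and then mouse B, and log2 differences are of called length plus 500 bp with the library's median gene subtracted. A gene is said to have risen or fallen where limma's Benjamini-Hochberg adjusted p over all 14589 genes was under 0.05. Where a pair of libraries is said to lie above or below others, the values are only described. How often all genes split in such ways was not counted, except where a share is given. Nothing in the labels says whether libraries of the same mouse came from separate cultures, so the p-values measure the spread between these libraries.

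Libraries held 48446 to 54552 peaks, with a covered length of 56.615 Mb at the lowest and 72.384 Mb at the highest, both in PAM3 libraries (mouse A and mouse B in turn). The lists give no read counts, so sequencing depth is unknown. All 10 macrophage markers examined were called in each of the 8 libraries, with a summed length of 66.9 to 99.16 kb, highest in PAM3 mouse B. Among them Adgre1 covered 13703 to 21938 bp in the libraries with PAM3 and 3247 to 5210 bp in those without. Itgam and Cebpb were also longer in every library with PAM3 than in those without. Csf1r was shorter, at 5178 to 8142 bp with PAM3 and 8648 to 11021 bp without, and the other macrophage markers overlapped. Of the markers of other cells, Ly6g of neutrophils, Cd3e and Cd8a of T cells, and Alb and Cyp7a1 of hepatocytes were at 0 in every library. The 4 neutrophil markers summed to 1.27 to 4.04 kb, the 4 lymphocyte markers to 1.42 to 3.2 kb, the 4 fibroblast and endothelial markers to 10.75 to 14.99 kb and the 3 hepatocyte markers to 0.0 to 0.25 kb with PAM3 and 0.27 to 1.19 kb without. Of the neutrophil markers, Elane covered 807 to 1751 bp with PAM3 and 2705 to 3524 bp without. S100a8 did not follow it, with 463 to 1859 bp with PAM3 and 490 to 593 bp without. Mpo was called only in 25HC mouse A (283 bp) and in the mouse B library given both agents (519 bp). The 2 adipocyte markers summed to 3.84 to 4.62 kb in the libraries with PAM3 and to 6.14 to 8.46 kb in those without. Of these, Adipoq covered 954 to 2667 bp with PAM3 and 3673 to 4772 bp without. Plin1 overlapped, with 1951 to 3384 bp with PAM3 and 1937 to 3685 bp without. The part of these differences in the results below was not tested.

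RefSeq promoter windows on GRCm38.p6, running from 250 bases before to 50 bases after an annotated start, were found for 26 of the 33 genes. Those of Stard4, Scd1, Scd2, Fads1, Fdps, Fdft1 and Sqle are not used here. The 5 windows printed here were chosen for the results they bear on. Hmgcs1 held the only match among the members to the sterol regulatory element, Insig1 and Acat2 have start sites whose called length differed between groups, the second start of Pmvk lies in a site that was longer in all 4 libraries with PAM3, and Elovl6 is the member that passed over its whole window. Capitals mark the motifs searched on both strands: TCACNCCAC (the sterol regulatory element), CACGTG (the E-box) and CCAAT (the CCAAT box, read as its complement where it lies on the other strand). None of these matches overlapped in the printed windows.
Hmgcs1, chr13:119690101-119690400, plus strand: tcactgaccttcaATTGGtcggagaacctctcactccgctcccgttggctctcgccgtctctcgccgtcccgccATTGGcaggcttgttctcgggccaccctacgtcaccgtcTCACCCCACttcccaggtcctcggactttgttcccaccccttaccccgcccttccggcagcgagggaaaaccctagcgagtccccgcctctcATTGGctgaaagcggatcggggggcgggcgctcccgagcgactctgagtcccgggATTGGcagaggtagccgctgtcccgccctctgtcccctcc
Insig1, chr5:28071162-28071461, plus strand: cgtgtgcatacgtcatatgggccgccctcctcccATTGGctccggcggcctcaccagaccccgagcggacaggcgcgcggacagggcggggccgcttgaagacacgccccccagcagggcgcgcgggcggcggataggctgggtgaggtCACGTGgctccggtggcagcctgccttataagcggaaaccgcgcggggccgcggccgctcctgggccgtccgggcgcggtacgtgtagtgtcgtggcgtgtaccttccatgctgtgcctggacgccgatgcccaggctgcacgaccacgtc
Pmvk, second start, chr3:89459321-89459620, plus strand: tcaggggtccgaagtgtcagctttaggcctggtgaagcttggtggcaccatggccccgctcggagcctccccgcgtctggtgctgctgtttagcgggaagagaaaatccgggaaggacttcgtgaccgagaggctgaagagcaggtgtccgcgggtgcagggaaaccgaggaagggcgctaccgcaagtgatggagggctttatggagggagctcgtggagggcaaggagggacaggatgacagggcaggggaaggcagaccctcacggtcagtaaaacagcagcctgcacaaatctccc
Acat2, chr17:12960676-12960975, minus strand: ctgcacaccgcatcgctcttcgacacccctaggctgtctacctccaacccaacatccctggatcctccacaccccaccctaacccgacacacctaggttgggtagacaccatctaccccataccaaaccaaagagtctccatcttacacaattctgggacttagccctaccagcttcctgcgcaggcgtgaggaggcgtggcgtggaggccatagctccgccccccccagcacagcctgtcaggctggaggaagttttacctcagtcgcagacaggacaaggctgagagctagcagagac
Elovl6, chr3:129532136-129532435, plus strand: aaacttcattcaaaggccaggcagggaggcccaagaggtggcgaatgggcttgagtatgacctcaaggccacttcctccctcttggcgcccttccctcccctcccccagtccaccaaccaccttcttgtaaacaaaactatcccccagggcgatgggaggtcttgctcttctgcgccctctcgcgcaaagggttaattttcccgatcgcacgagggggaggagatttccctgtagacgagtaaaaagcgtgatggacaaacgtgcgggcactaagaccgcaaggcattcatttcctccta

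The sterol regulatory element matched in 1 of the 26 members (3.85%), in the promoter of Hmgcs1 with its first base at position −137 from the start, against 1.4% of the 11703 tested genes with a window. The E-box was found in 5 members (19.2% against 11.0%), namely Insig1, Scap, Dhcr7, Hsd17b7 and Sc5d. The CCAAT box was found in 20 members (76.9% against 42.6%), of which 18 were among the 20 sterol genes with a window and 2 among the 6 fatty acid genes. The windows of Acat2, Elovl6 and the second start of Pmvk held no match to any of the motifs. These are matches of letters, not measured binding.

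Acetylation at the starts of these genes was present in nearly every library. Of the 26 members with a RefSeq start, 22 (84.6%) had a peak over a start in all 8 libraries, against 64.2% of the 11703 tested genes with a start. Among them were 18 of 20 sterol genes (90.0%) and 4 of 6 fatty acid genes (66.7%). Msmo1 and Hsd17b7 each lacked the peak in 1 of 8 libraries. For Acaca and Lpin1, no library had a peak over the RefSeq start, although both genes had called sites elsewhere in their windows. Of 1 kb bins covered by at least 50% in some library, 65 of the 168 bins in member windows (38.7%) were so covered in all 8 libraries, against 21.7% of 117757 bins across the genome. In all, peaks that touched each other across libraries formed 112 sites in the members' windows. Of these, 57 were called in all 8 libraries and 15 in 1 library. With the exceptions of Scd2 and Hsd17b7, both at 0 in the 25HC then PAM3 library of mouse A, the other 31 members had called length in every library.

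**Figure D1:**
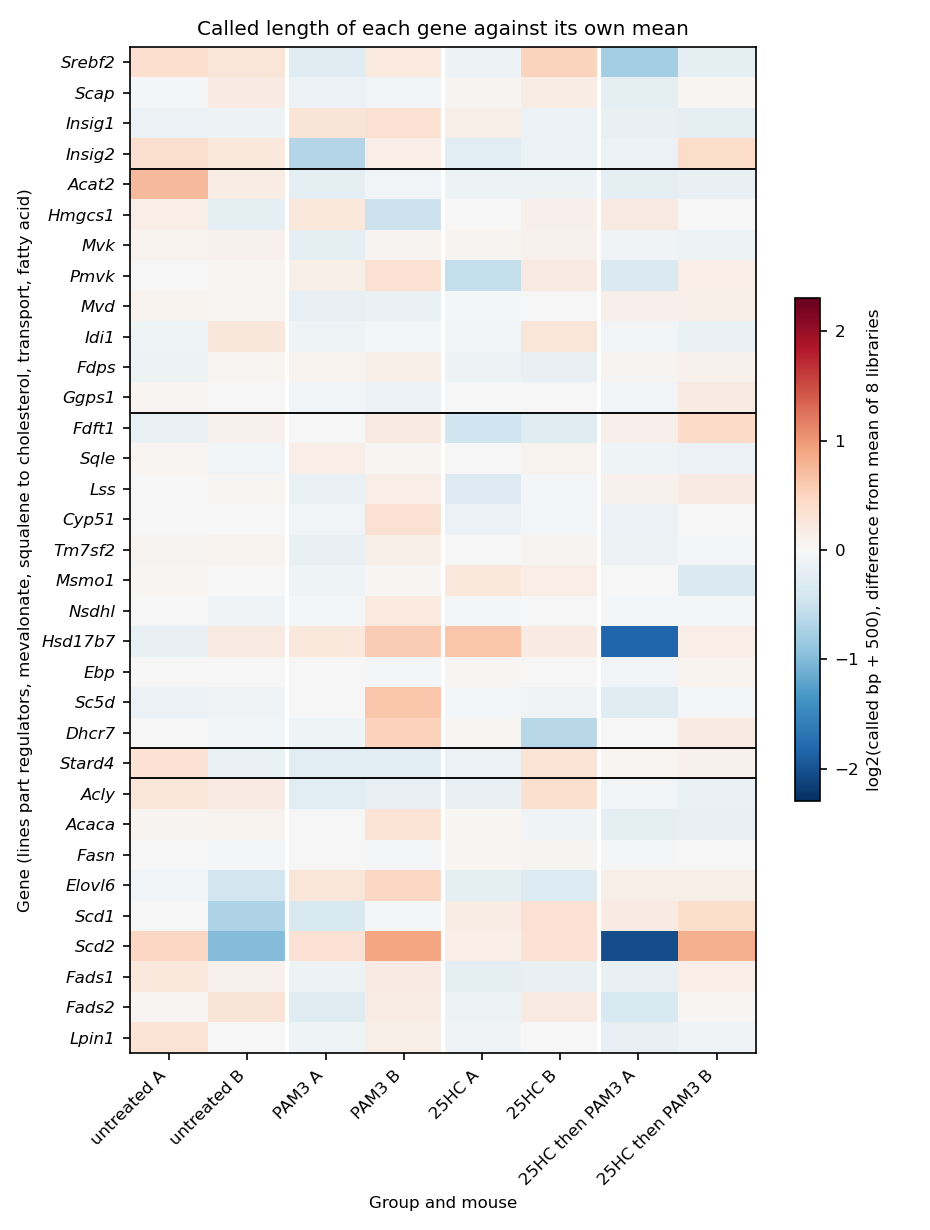
Called length of the 33 genes (rows, grouped by role) in the 8 libraries (columns, 2 per group). Colour gives log2 of called bp plus 500 bp minus the gene's own mean over the 8 libraries, red above and blue below; the darkest cells are Hsd17b7 and Scd2 at 0 in 25HC then PAM3, mouse A.

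By its median gene, each arm differed by −0.15 to 0.06 on the log2 scale over the 7 contrasts, and these medians were not tested. With PAM3 alone against untreated cells, the median log2 difference was 0.00 over the sterol arm and 0.06 over the fatty acid arm, beside −0.01 over all genes tested. With PAM3 after 25HC against 25HC, the medians were −0.05 and −0.12, beside −0.02. With 25HC against untreated they were 0.05 and −0.04, beside 0.01, and with 25HC then PAM3 against PAM3 they were −0.06 and −0.11, beside 0.01. For the difference of the PAM3 responses they were −0.10 and −0.15, beside −0.01. For PAM3 on average they were −0.01 and −0.02, beside −0.01, and for 25HC on average −0.02 and −0.10, beside 0.01. Parts of the sterol arm differed in sign with PAM3 against untreated. The median was −0.22 over the regulators, −0.09 over mevalonate and isoprenoid genes and 0.18 from squalene to cholesterol, and Stard4 was at −0.29. Summed over its 24 genes, the sterol arm covered 73.99 ± 1.62 kb in untreated cells, 70.64 ± 7.57 kb with PAM3, 68.77 ± 3.91 kb with 25HC and 68.49 ± 6.45 kb with both (SD, n = 2 each). The fatty acid arm covered 40.62 ± 4.8, 44.61 ± 6.18, 39.23 ± 1.61 and 39.59 ± 4.08 kb in the same order (SD, n = 2 each). In these sums, which are not scaled to the library's total, the fatty acid ranges of all groups overlapped. In the sterol arm the untreated pair lay above the 25HC pair while all other pairs of groups overlapped. For both arms, the unscaled sums of the 2 PAM3 libraries differed by more than any 2 group means did. The total over all genes tested was lowest in PAM3 mouse A and highest in PAM3 mouse B. Per 1000 kb of that total, the fatty acid arm covered 0.805 and 0.783 kb with PAM3, above the other groups (0.654 to 0.746 kb). The sterol arm covered 1.169 and 1.23 kb with both agents, below the untreated (1.274 and 1.279 kb) and 25HC pairs (1.26 and 1.269 kb). That pair overlapped the PAM3 pair (1.305 and 1.214 kb). These shares were not tested.

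Gene by gene, none of the 33 passed with PAM3 against untreated, a contrast in which limma called 3.87% of all genes. At an unadjusted p under 0.05 there were 4 members (12.1%), beside 19.2% of all genes. None passed with 25HC then PAM3 against 25HC either (5.02% of all genes called), where 5 members had an unadjusted p under 0.05 (15.2%, beside 21.4%). No member passed with 25HC against untreated (0.0343% called), where 3 members had an unadjusted p under 0.05 (9.09%, beside 4.65% of all genes). None passed with 25HC then PAM3 against PAM3 (1.3% called), where 4 members reached that unadjusted level (12.1%, beside 14.9%). The difference between the PAM3 responses with and without 25HC had no call among all genes (0% called by limma, 9.86% at unadjusted p under 0.05), and 2 members reached that unadjusted level (6.06%). Averaging over 25HC, the effect of PAM3 had 1 member past the threshold, Elovl6, where limma called 11.8% of all genes. Averaging over PAM3, the effect of 25HC had none (0.0685% of all genes called), with 2 members at an unadjusted p under 0.05 (6.06%, beside 11.4%). The comparisons with a shared group share its libraries, so their values are not independent of each other.

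**Figure D2:**
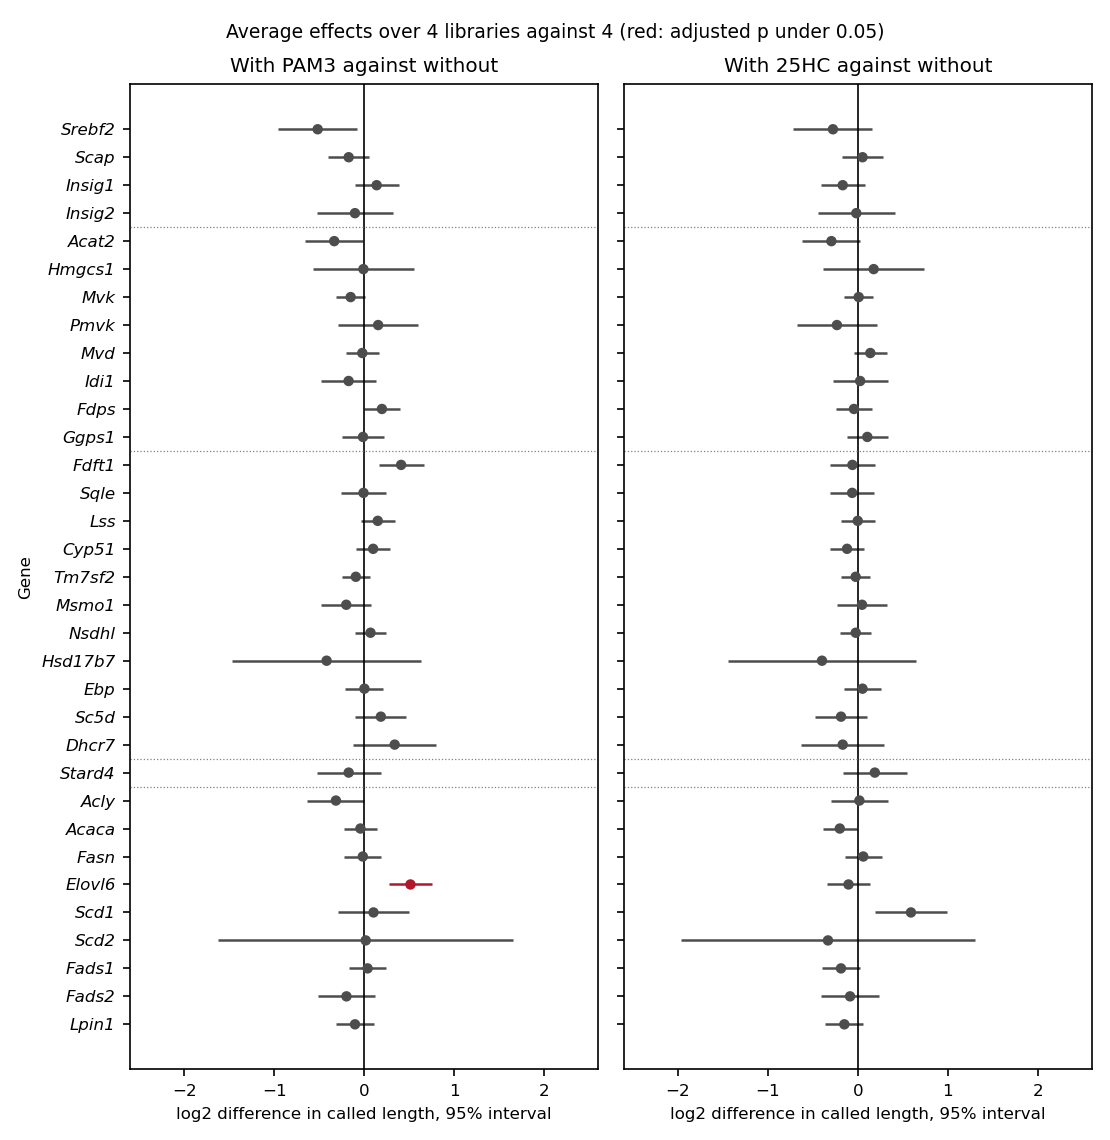
Log2 difference in called length with its 95% interval for each of the 33 genes, for the 4 libraries with PAM3 against the 4 without (left) and the 4 with 25HC against the 4 without (right). Elovl6 with PAM3 is the only red point; the intervals of Scd2 and Hsd17b7 are the widest, since each was at 0 in 1 library.

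All 4 regulators of the pathway had a peak over a start in every library, and no regulator passed in any contrast over the whole window. Srebf2 encodes SREBP2, the factor that drives sterol synthesis. Its called length was 8111 and 7441 bp in untreated cells, 4903 and 7144 bp with PAM3, 5562 and 8814 bp with 25HC, and 3309 and 5162 bp with 25HC then PAM3. The lowest library was the mouse A library given both agents, and the 4 libraries with PAM3 overlapped the 4 without. The average PAM3 effect on the log2 scale was −0.52 ± 0.18 (standard error; limma adjusted p = 0.129). The start site (chr15:82145425-82148148) covered 2018 and 2179, 2519 and 2724, 1706 and 2117, and 1970 and 2011 bp in the same group order. A site 50161 bp from the start (chr15:82197430-82199238) covered 1437 and 1445 bp in untreated cells, 678 and 845 bp with PAM3, 504 and 1809 bp with 25HC, and 334 and 375 bp with both.

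Scap encodes the sterol sensor that escorts SREBPs. Its called length was 3239 and 3886 bp in untreated cells, 2998 and 3212 bp with PAM3, 3516 and 3825 bp with 25HC, and 2820 and 3460 bp with both. The PAM3 pair lay below the untreated and 25HC pairs, the pair with both agents lay below the 25HC pair, and the other pairs of groups overlapped. One 1 kb bin inside Scap, 18645 bp from a start, was called in both 25HC libraries (686 and 1000 bp covered) and in no other library (238 to 405 bp).

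Insig1 encodes an ER anchor of SCAP and is itself an SREBP target. Its window held a single site over the start (chr5:28069697-28072248), the one that contains the printed promoter with its E-box. That site covered 1402 and 1444 bp in untreated cells, 2072 and 2183 bp with PAM3, 1805 and 1418 bp with 25HC, and 1357 and 1309 bp with 25HC then PAM3. Both PAM3 libraries lay above the other 6. The log2 difference was 0.50 ± 0.14 for PAM3 against untreated (adjusted p = 0.13) and −0.53 ± 0.14 for 25HC then PAM3 against PAM3 (standard errors; adjusted p = 0.161). The PAM3 response with 25HC minus that without was −0.72 (95% interval −1.21 to −0.23), with an unadjusted p of 0.0117 and a limma adjusted p of 0.335. The added length lay upstream: the 1 kb bin that ends 412 bp upstream of the start was covered at 1000 and 1000 bp with PAM3 and at 431 to 557 bp in the other 6 libraries. Within the gene body alone, Insig1 differed by −0.02 between PAM3 and untreated cells on the log2 scale.

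Insig2 encodes the second INSIG protein. Its called length was 4812 and 4373 bp untreated, 2106 and 4105 bp with PAM3, 3015 and 3265 bp with 25HC, and 3256 and 5024 bp with both. The lowest library was PAM3 mouse A and the highest the mouse B library given both agents, and no contrast passed (adjusted p = 0.34 for PAM3 against untreated).

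Mevalonate and isoprenoid genes make the isoprene units of sterols and of the lipid tails of proteins. Hmgcs1 encodes the cytosolic synthase that makes HMG-CoA. It covered 4827 and 3660 bp in untreated cells, 5218 and 2931 bp with PAM3, 4273 and 4700 bp with 25HC, and 5025 and 4288 bp with both. Its promoter site, which holds the sterol regulatory element printed above, varied little (1767 to 2082 bp over the 8 libraries). Most of the spread came from a site 15142 bp from the start that was absent from the PAM3 library of mouse B and covered 934 to 2376 bp in the other 7.

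Pmvk encodes phosphomevalonate kinase. Over the whole window its called length was 2304 and 2356, 2546 and 3039, 1409 and 2734, and 1699 and 2597 bp in the order untreated, PAM3, 25HC and both, and no contrast passed (average PAM3 effect 0.15 ± 0.18). Single sites in that window differed in opposite directions. The site over the second start (chr3:89457767-89459862) covered 803 and 801 bp untreated and 873 and 810 bp with 25HC, against 1659 and 1984 bp with PAM3 and 1439 and 1589 bp with 25HC then PAM3. A site in the 3′ flank (chr3:89472507-89474014) covered 1501 and 1508 bp untreated, 0 and 276 bp with PAM3, 197 and 1448 bp with 25HC, and 0 and 0 bp with both. The 4 libraries with PAM3 were all longer at the start site than the 4 without, a split whose share over sites of all genes was not counted.

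Counting within 2 kb of annotated starts, Pmvk rose with PAM3 against untreated by 0.87 ± 0.07 on the log2 scale (limma adjusted p = 0.00794), where 2.8% of genes were called in that contrast. It also rose with 25HC then PAM3 against 25HC, by 0.58 (adjusted p = 0.0217; 3.39% of genes called), and on average over 25HC by 0.72 (adjusted p = 0.00259; 5.94% of genes called). With the mouse as a block the adjusted p values of these 3 calls were 0.0339, 0.0656 and 0.0152, so the call after 25HC was lost. That call was also lost without the mouse B library of 25HC (adjusted p = 0.0667) or of 25HC then PAM3 (adjusted p = 0.064). In the gene body alone, the Pmvk differences were 1.19 for PAM3 against untreated (adjusted p = 0.0174; 3.76% of genes called), 0.82 for 25HC then PAM3 against 25HC (adjusted p = 0.0356; 5.16% called) and 1.0 on average (adjusted p = 0.00539; 11.5% called). The first of these was lost without the untreated library of mouse A (adjusted p = 0.0797) or mouse B (adjusted p = 0.0641). The second was lost with the block (adjusted p = 0.0683) and without any one of the untreated, 25HC or 25HC then PAM3 libraries (adjusted p = 0.0639 to 0.161). The average effect in both windows passed with the block and without each library in turn. PAM3 responses with and without 25HC did not differ past the threshold at the starts (difference −0.29 ± 0.10, standard error, adjusted p = 0.547).

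Fdps encodes farnesyl diphosphate synthase, at the branch from sterols to protein prenylation. Its window covered 4245 and 4797 bp untreated, 4928 and 5185 bp with PAM3, 4229 and 4084 bp with 25HC, and 4858 and 4995 bp with both, so the 4 libraries with PAM3 lay above the 4 without. Such a split in either direction was seen for 2 of 33 members, Fdps and Elovl6, and for 16.8% of all genes. The site at the gene's right end (chr3:89100827-89103863; the table gives no strand for Fdps) covered 1624 and 2055 bp untreated, 2772 and 2883 bp with PAM3, 1693 and 1528 bp with 25HC, and 2782 and 2736 bp with both. The bin next to that end and outside the gene, chr3:89102001-89103000, was covered in full in the 4 libraries with PAM3 and by at most 101 bp in the others. Over the whole window the average PAM3 effect was 0.20 ± 0.08 (adjusted p = 0.198). Within 2 kb of the gene ends, Fdps rose on average by 0.59 ± 0.07 (limma adjusted p = 0.0154; 0.0481 after blocking on the mouse). Without the 25HC library of mouse B, that call was lost (adjusted p = 0.055). A site in the flank beyond the left end touches the neighbouring gene Rusc1 and covered 2076 to 2403 bp.

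Acat2 encodes acetoacetyl-CoA thiolase, the first step of the pathway. Its window covered 4857 and 3118 bp in untreated cells, 2253 and 2545 bp with PAM3, 2460 and 2430 bp with 25HC, and 2219 and 2331 bp with both. Both untreated libraries lay above the other 6, and the value of mouse A included 2931 bp of a flank site shared with Acat3. At the start site (chr17:12959532-12961499) the same order held, with 1926 and 1948 bp untreated, 1271 and 1421 bp with PAM3, 1389 and 1424 bp with 25HC, and 1262 and 1341 bp with both. Over the whole window, the difference was −0.56 ± 0.18 for PAM3 against untreated (adjusted p = 0.178) and −0.52 ± 0.18 for 25HC against untreated (adjusted p = 0.999). Within 2 kb of the start, Acat2 fell with PAM3 against untreated by 0.36 on the log2 scale (limma adjusted p = 0.012, 0.0435 with the block). That call was lost without the untreated library of mouse A (adjusted p = 0.0541). At the start the average effect of PAM3 was −0.23 (limma adjusted p = 0.0103, 0.0329 with the block), and it passed without each library in turn. That average joins unlike parts, −0.36 without 25HC and −0.09 after 25HC (adjusted p = 0.335). The difference between these 2 was 0.27 (adjusted p = 0.136). With 25HC against untreated the start gave −0.34 (adjusted p = 0.0578), and with 25HC then PAM3 against PAM3 it gave −0.06 (adjusted p = 0.647). The average effect of 25HC there was −0.20 (adjusted p = 0.0479), where 0.824% of genes were called. This last call was lost with the block (adjusted p = 0.151) and without any one library other than the PAM3 libraries (adjusted p = 0.0512 to 0.12).

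Mvk, mevalonate kinase, covered 1878 and 1907 bp untreated, 1466 and 1873 bp with PAM3, 1869 and 1908 bp with 25HC, and 1631 and 1591 bp with both. Mvd, the decarboxylase that ends the mevalonate steps, covered 6636 and 6423 bp untreated, 5444 and 5624 bp with PAM3, 6159 and 6186 bp with 25HC, and 6865 and 6971 bp with both. The PAM3 pair of Mvd was the lowest and the pair with both agents the highest (25HC then PAM3 against PAM3, 0.29 ± 0.10, adjusted p = 0.275). Much of the Mvd window is a site shared with Cyba, a subunit gene of the phagocyte oxidase, which covered 2984 to 4042 bp over the 8 libraries. Idi1, the isomerase, ranged from 1434 to 2094 bp and Ggps1, which makes the geranylgeranyl unit, from 1859 to 2469 bp. In Idi1 the pair with both agents (up to 1555 bp) lay just below the 25HC pair (from 1562 bp) and the other pairs of groups overlapped. In Ggps1 the PAM3 pair (up to 1968 bp) lay just below the other 3 groups (from 1979 bp).

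**Figure D3:**
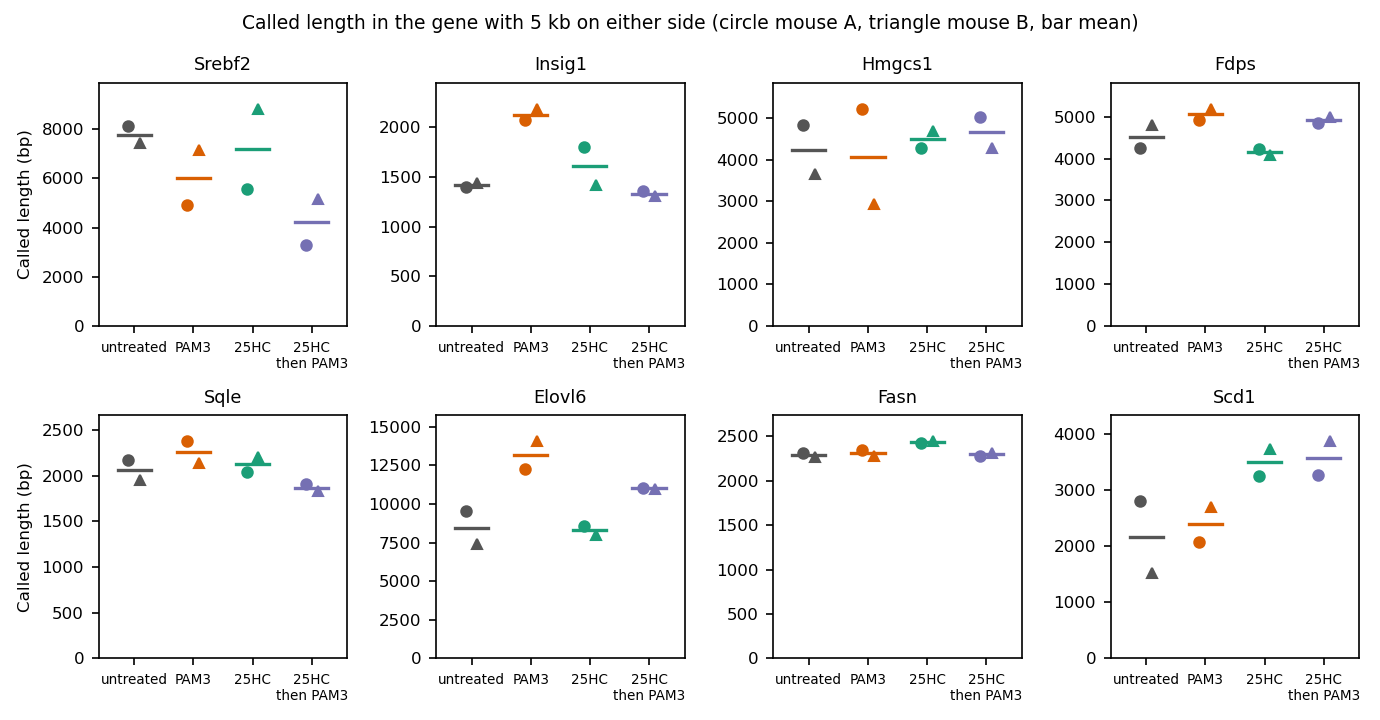
Called length in bp (vertical axis, from 0) over the gene with 5 kb on either side for 8 members in the 4 groups; circles are mouse A, triangles mouse B and bars the group mean. Elovl6 and Fdps were longer in all 4 libraries with PAM3, Scd1 in all 4 with 25HC, Insig1 in the 2 with PAM3 alone, and Fasn had the narrowest range of the 33 relative to its mean.

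From squalene to cholesterol, the gene with a local difference was Fdft1, which encodes squalene synthase, the first step committed to sterols. Its window covered 4542 and 5523 bp untreated, 5175 and 5984 bp with PAM3, 3559 and 4128 bp with 25HC, and 5609 and 7138 bp with both. With PAM3 after 25HC against 25HC, the log2 difference was 0.63 ± 0.14 (adjusted p = 0.0682). A site inside the gene (chr14:63148224-63150897) covered 398 and 1316 bp untreated and 0 bp in both 25HC libraries, against 2278 and 2383 bp with PAM3 and 2142 and 2303 bp with 25HC then PAM3. Another internal site (chr14:63156921-63158308) went the same way, with 384 and 256, 813 and 1321, 0 and 285, and 1002 and 1388 bp in the order untreated, PAM3, 25HC and both. A flank site that touches the neighbouring protease gene Ctsb went the other way, with 1484 and 1620, 0 and 0, 1040 and 1746, and 0 and 1207 bp.

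In the gene body alone, without that flank, Fdft1 covered 3058 and 3632 bp untreated, 5175 and 5984 bp with PAM3, 2519 and 2382 bp with 25HC, and 5609 and 5931 bp with both. It rose with 25HC then PAM3 against 25HC by 1.06 ± 0.13 on the log2 scale (limma adjusted p = 0.0152) and on average with PAM3 by 0.88 ± 0.09 (adjusted p = 0.00626). The first call held with the block (adjusted p = 0.0418). It was lost without the 25HC library of mouse A (adjusted p = 0.0584) or mouse B (adjusted p = 0.0869) and without the 25HC then PAM3 library of mouse B (adjusted p = 0.0511). The average effect passed with the block (adjusted p = 0.0196) and without each library in turn. With PAM3 against untreated, the difference in the gene body was 0.70 (adjusted p = 0.0519).

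Sqle, squalene epoxidase, covered 2171 and 1953 bp untreated, 2379 and 2139 bp with PAM3, 2044 and 2211 bp with 25HC, and 1910 and 1833 bp with both. Lss, lanosterol synthase, covered 2611 and 2696, 2270 and 2914, 2009 and 2493, and 2807 and 3002 bp in the same order, with 0.29 ± 0.11 for 25HC then PAM3 against 25HC (adjusted p = 0.205). Msmo1, a sterol demethylase, covered 2660 and 2590 bp untreated, 2391 and 2639 bp with PAM3, 3158 and 2917 bp with 25HC, and 2567 and 1938 bp with both. In Msmo1 the 25HC pair was highest, and PAM3 after 25HC gave −0.40 ± 0.16 against it (adjusted p = 0.231). Sc5d, the sterol desaturase, covered 1220 and 1298 bp untreated, 1422 and 2446 bp with PAM3, 1343 and 1298 bp with 25HC, and 1063 and 1368 bp with both. The high PAM3 value of mouse B included a flank site of 704 bp seen in no other library, and no contrast of Sc5d passed (lowest adjusted p = 0.185).

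The other 6 genes of these steps had no contrast past the threshold. Cyp51, lanosterol demethylase, ranged from 1353 to 2107 bp, Tm7sf2, a sterol reductase, from 3472 to 4386 bp, and Nsdhl, a dehydrogenase, from 1316 to 1742 bp. Ebp, the sterol isomerase, ranged from 1640 to 1870 bp and Dhcr7, the last reductase, from 1872 to 4842 bp. Hsd17b7, a keto-reductase, ranged from 0 to 2256 bp. Stard4, a carrier of cholesterol between membranes, covered 2790 and 1876 bp untreated, 1687 and 1731 bp with PAM3, 1902 and 2782 bp with 25HC, and 2200 and 2304 bp with both, all from 1 site, and its groups overlapped except that the PAM3 pair was lowest.

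Among fatty acid genes, Elovl6 was the member that rose. It encodes the elongase that lengthens palmitate to stearate. Its window covered 9562 and 7383 bp in untreated cells, 12252 and 14064 bp with PAM3, 8581 and 8016 bp with 25HC, and 11026 and 10998 bp with 25HC then PAM3. All 4 libraries with PAM3 lay above all 4 without, and no other gene's body lies in this window. The average effect of PAM3 was 0.51 ± 0.10 on the log2 scale (95% interval 0.27 to 0.75; limma adjusted p = 0.0273, or 0.0326 after blocking on the mouse). It was 0.66 ± 0.14 without 25HC (adjusted p = 0.0634) and 0.36 ± 0.14 after 25HC (adjusted p = 0.202), and the difference between the 2 was −0.30 (95% interval −0.77 to 0.18, adjusted p = 0.709).

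The Elovl6 call was near the threshold. It passed without the untreated library of mouse A (adjusted p = 0.0318). It was lost without the untreated library of mouse B (0.0545), the PAM3 library of mouse A (0.0603) or B (0.0658), the 25HC library of mouse A (0.0625) or B (0.0903), and the 25HC then PAM3 library of mouse A (0.0725) or B (0.063), each an adjusted p from limma. The difference itself stayed between 0.43 and 0.60 in these fits. In the gene body alone the average effect was 0.51 (adjusted p = 0.0357). That call was lost after blocking on the mouse (0.0503) and in the fits without 1 library (0.0675 to 0.111), except without the untreated library of mouse A (0.0358).

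Called length of Elovl6 differed at several sites. The start site (chr3:129531059-129536313) covered 3045 and 2594 bp untreated, 4266 and 4399 bp with PAM3, 3066 and 2027 bp with 25HC, and 3456 and 3439 bp with both. A site 40753 bp from the start (chr3:129573139-129574805) covered 312 and 660, 1018 and 1446, 379 and 823, and 1456 and 1482 bp. Another, 79423 bp from the start (chr3:129611809-129614490), covered 1750 and 1725, 2593 and 2414, 2047 and 2009, and 2270 and 2464 bp. At each of these 3 sites the libraries with PAM3 did not overlap those without. They are parts of the window already called, and how often sites of all genes split this way was not counted. A site 98604 bp from the start (chr3:129630990-129634708) covered 1601 and 0, 1644 and 3452, 498 and 525, and 1032 and 1020 bp, and there the libraries with and without PAM3 overlapped. The site 19834 bp from the start (chr3:129552220-129554750) covered 2175 to 2530 bp, with overlap between libraries with and without PAM3.

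Scd1 and Scd2 encode stearoyl-CoA desaturases, which introduce the double bond of oleate. Scd1 covered 2798 and 1517 bp untreated, 2078 and 2695 bp with PAM3, 3245 and 3731 bp with 25HC, and 3272 and 3864 bp with both. All 4 libraries with 25HC lay above the 4 without, a split seen for 1 of 33 members and for 2.92% of all genes. The average 25HC effect on Scd1 was 0.59 ± 0.16 (95% interval 0.19 to 0.99; limma adjusted p = 0.239), so it did not pass. At the left end of the gene (chr19:44393582-44395155) the site covered 1216 and 0, 568 and 473, 1378 and 1536, and 1208 and 1316 bp, so that untreated mouse A overlapped the libraries with 25HC. The site at the right end (chr19:44407068-44408967) covered 1510 to 1900 bp, and libraries with and without 25HC overlapped there too. The annotation used gives no strand for Scd1. Scd2 covered 2387 and 535, 2084 and 3359, 1805 and 2114, and 0 and 3158 bp in the order untreated, PAM3, 25HC and both, and had the widest range of the 33 relative to its mean.

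Fasn, the fatty acid synthase gene, had the narrowest range of the 33 relative to its mean (7.67%), with 2311 and 2265 bp untreated, 2351 and 2278 bp with PAM3, 2426 and 2444 bp with 25HC, and 2283 and 2313 bp with both. Acaca, which encodes acetyl-CoA carboxylase, covered 8653 and 8762 bp untreated, 8157 and 10288 bp with PAM3, 8462 and 7695 bp with 25HC, and 6979 and 7169 bp with both. The pair given both agents was the lowest, at −0.36 ± 0.11 against PAM3 (adjusted p = 0.196). A bin 25563 bp from the RefSeq start was fully covered in both PAM3 libraries and uncovered in the pair given both agents. That bin was covered at 1000 and 0 bp in untreated cells and at 1000 and 494 bp with 25HC. Acly, ATP citrate lyase, covered 4241 and 3946 bp untreated, 2829 and 2924 bp with PAM3, 2984 and 4575 bp with 25HC, and 3250 and 3026 bp with both. A site inside Acly (chr11:100477880-100478931) covered 1048 and 1008 bp in untreated cells and 505 bp in 25HC mouse B, and was at 0 in the other 5 libraries.

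Fads1, the front-end desaturase gene, covered 4150 and 3712 bp untreated, 3112 and 3968 bp with PAM3, 2833 and 2975 bp with 25HC, and 2968 and 3845 bp with both. Its 25HC pair lay below the untreated pair (−0.32 ± 0.12, adjusted p = 1.0). Fads2, its neighbouring desaturase gene, ranged from 1892 to 3264 bp. Lpin1, a phosphatidate phosphatase and coactivator gene, ranged from 5032 to 7308 bp. Neither had a contrast past the threshold.

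**Figure D4:**
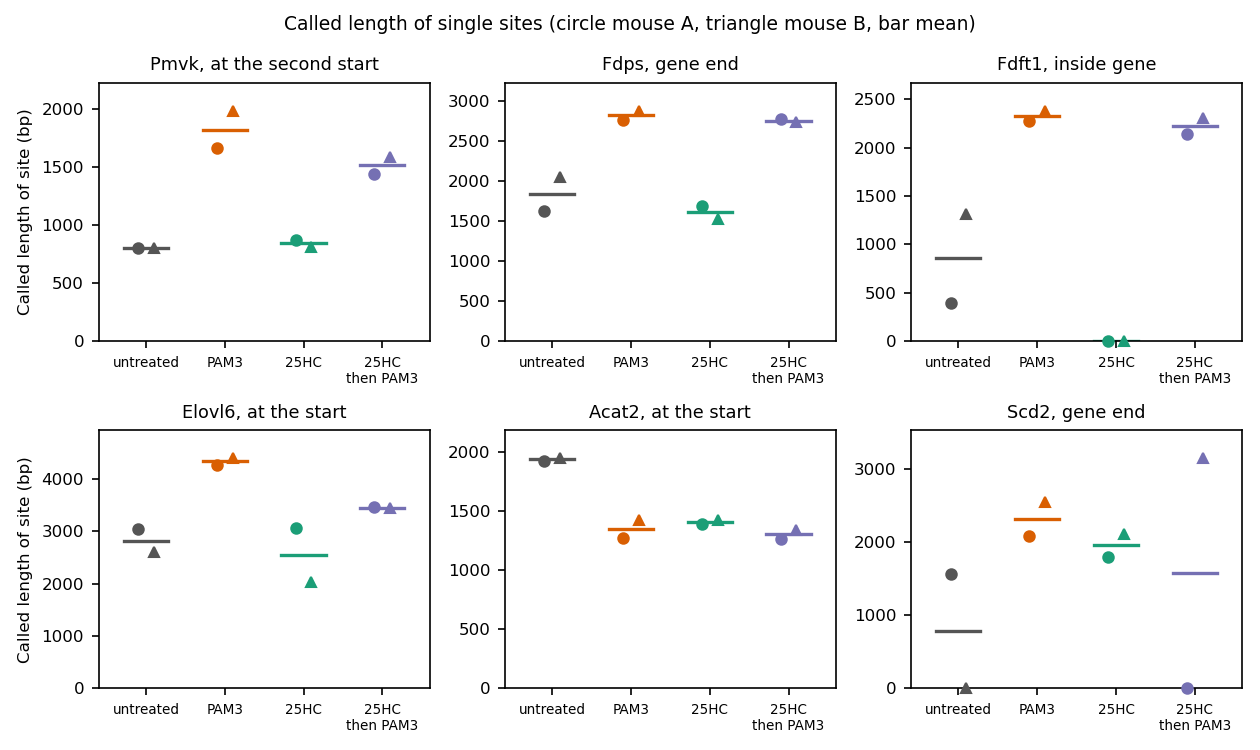
Called length in bp (vertical axis, from 0) of 6 single sites in the 4 groups; circles are mouse A, triangles mouse B and bars the group mean. The sites of Pmvk, Fdps, Fdft1 and Elovl6 were longer in all 4 libraries with PAM3, and the Acat2 start was longest in the 2 untreated libraries. The Scd2 site was at 0 in 1 untreated library and in 1 library given both agents. How often sites of all genes split in these ways was not counted.

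Gains and losses were also counted by 1 kb bins. With PAM3 against untreated, 12 member bins were gained (called in both PAM3 libraries and neither untreated one) and 9 were lost, where 5.14% of bins were gained and 6.89% lost across the genome. The gained bins lay in Elovl6 (4), Fdft1 (3), Fasn, Tm7sf2, Fads2, Fdps and Pmvk. With 25HC then PAM3 against 25HC, 10 were gained and 6 lost (8.8% and 6.35% across the genome). Bins in Fdft1, Fdps, Pmvk and Elovl6 were gained in both of these comparisons, which share no library but draw on the same mice. How often bins across the genome were gained in both was not counted. With 25HC against untreated, 4 were gained and 5 lost (1.28% and 2.7%), and with 25HC then PAM3 against PAM3, 4 were gained and 7 lost (5.32% and 3.87%). The bin upstream of Insig1 was among those lost in the last comparison, and a bin at the left end of Scd1 was among those gained. Out of 168 member bins, the gains came to 7.14%, 5.95%, 2.38% and 2.38% and the losses to 5.36%, 3.57%, 2.98% and 4.17% in the order of the comparisons above.

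The rest of the pathway was followed through 30 further genes of sterol and fatty acid synthesis, of which 28 passed the filter. With 25HC then PAM3 against 25HC, 3 of the 28 passed (10.7%, beside 5.02% of all genes), 1 up and 2 down. Gpam, the acyltransferase that opens triglyceride synthesis, fell by 0.92 on the log2 scale (adjusted p = 0.0243), from 4327 and 4534 bp with 25HC to 1825 and 2521 bp with both. Mbtps2, the protease that releases SREBPs, fell by 0.97 (adjusted p = 0.0323), from 3218 and 3806 bp to 1599 and 1543 bp. Hacd3, a dehydratase of fatty acid elongation, rose by 0.78 (adjusted p = 0.0458), from 2514 and 3480 bp to 5488 and 5601 bp. With the mouse as a block, the adjusted p was 0.042 for Gpam, 0.06 for Mbtps2 and 0.0605 for Hacd3, so the last 2 calls were lost. On average with PAM3, 3 of the 28 passed (10.7%, beside 11.8% of all genes), all of them lower: Mbtps2 by 0.80 (adjusted p = 0.0131), Gpam by 0.54 (adjusted p = 0.0199) and Aacs, acetoacetyl-CoA synthetase, by 0.47 (adjusted p = 0.0399, lost with the block at 0.0708). Leaving out 1 library at a time, the average effect on Mbtps2 was lost without 25HC mouse B only (adjusted p = 0.0521) and that on Gpam without either untreated or either 25HC library (up to 0.0693), while Aacs passed in 1 of 8 such fits. With 25HC then PAM3 against 25HC, Gpam was lost without either 25HC library (up to 0.113), Mbtps2 passed in 2 of 8 such fits and Hacd3 in 0 of 8. None of the 28 passed in limma's other 5 contrasts. At an unadjusted p under 0.05 there were 7 with PAM3 against untreated (25.0%, beside 19.2% of all genes). There were 0 with 25HC against untreated (beside 4.65%) and 6 with 25HC then PAM3 against PAM3 (21.4%, beside 14.9%). The difference of the PAM3 responses had 6 (21.4%, beside 9.86%) and 25HC on average had 1 (3.57%, beside 11.4%).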

How the data were processed

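Acetyl-H4 ChIP-seq of 8 libraries (4 groups of 2) was analysed from the deposited broadPeak lists. The submitters' processing notes name GSNAP, MACS2 2.1.0 and the build GRCm38 (mm10); for controls, read filters and thresholds, the sources used here state nothing. The deposited lists give each peak's start and end, the authors' fold ratio over background and the authors' −log10 q. The fold ratios were summarised only as percentiles within a list, and −log10 q served as a filter. No list was pooled over mice.

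Called length per gene was computed with Python 3.11.15 and pandas 2.3.3 on the autosomes, X and Y, using RefSeq gene bodies on GRCm38.p6 with 5 kb flanks. Windows of 25 of the 33 genes touch another gene. Genes with a mean of at least 500 bp were tested, on log2(called bp + 500) with each library's median subtracted, so changes of short genes are understated. Without that subtraction the median gene differed by −0.06 to 0.07 between the sides of a contrast.

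The 4 groups entered a single limma fit (version 3.58.1, R 4.3.3; trend and robust empirical Bayes), with 4 residual degrees of freedom (3 with the mouse as a block), 7 contrasts and Benjamini-Hochberg adjustment. It was tested on simulated data. Per the labels, a letter marks 1 mouse across the groups, and correlations of same-mouse deviations lay between −0.017 and 0.030. The unblocked fit is reported, and the blocked value is given where a call was lost or rests on a narrower window. Errors after ± on log2 values are standard errors. Sites are peaks of all libraries merged where they touch or overlap.

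The members and lists were chosen with earlier results of these data known. Values per library are given for members that passed, for the 3 smallest p in each direction of a contrast, and for 12 fixed members; Pmvk was added after its values were seen. Of the 30 further genes, those with an adjusted p under 0.05 are named. Alternatives were the block, leaving out each library, pseudocounts of 100 and 2000 bp, no filter, no median subtraction, peaks of −log10 q of at least 5, equal peak numbers, other windows and other bin coverage. The block and left-out libraries within the narrower windows were added after seeing the data.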

Additional observations from a re-analysis of the deposited data

How the results depend on the processing

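Counts of members that passed depended on the window. In the gene body with no flank, 1 member passed with PAM3 against untreated, beside 3.76% of all genes tested there. With 25HC then PAM3 against 25HC 2 members passed (beside 5.16%), and with PAM3 on average 3 (beside 11.5%). Within 2 kb of gene starts the counts were 2, 1 and 3 (beside 2.8%, 3.39% and 5.94%), and 1 with 25HC on average (beside 0.824%). Mvk was not tested in the body window, nor Acaca and Lpin1 in the start window. Leaving out 1 library gave 0 to 1 members for PAM3 on average and 0 to 1 for 25HC then PAM3 against 25HC, where Hsd17b7 passed without the mouse B library given both agents. Without the untreated library of mouse B, the member that passed on average with PAM3 was Acat2 (adjusted p = 0.0411), and Elovl6 did not pass. With no median subtraction or with peaks of −log10 q of at least 5, 0 members passed for PAM3 on average, and Elovl6 had adjusted p = 0.0526 and 0.529. Under the replicate block by mouse, Elovl6 was the 1 member that passed on average with PAM3 (log2 0.51, adjusted p = 0.0326) and the other 6 contrasts had 0. Genome-wide, limma with the block called 168 genes for PAM3 against untreated (564 without it), 281 for 25HC then PAM3 against 25HC (733) and 0 for 25HC then PAM3 against PAM3 (190), and it called 1236 for PAM3 on average (1724). With peaks of −log10 q of at least 5 it called 0 genes in every contrast.

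Differences of sign under an alternative were, for members of the named comparisons on the log2 scale, as follows; the cause was not tested. With PAM3 against untreated, Insig1 was −0.0167 in the gene body, and with the stricter q Acly was 0.0806 and Pmvk −0.95. With 25HC then PAM3 against 25HC, the start window gave 0.0438 for Srebf2, −0.59 for Fdft1 and −0.0216 for Lss, and the stricter q gave −0.95 for Lss and −0.0297 for Elovl6. In that comparison, Pmvk over the whole window ranged from −0.30 (without 25HC mouse A) to 0.40 (without 25HC mouse B) when 1 library was left out, and was −0.16 without the mouse B library given both agents. With 25HC against untreated, the stricter q gave 0.0462 for Fdft1 and 0.074 for Fads1, which was 0.0256 in the start window. With 25HC then PAM3 against PAM3, the gene body gave 0.0164 for Insig1 and 0.0282 for Sc5d. For the difference of PAM3 responses, the stricter q gave −0.0864 for Fdft1. For PAM3 on average, the start window gave 0.17 for Srebf2 and −1.12 for Fdft1, the gene body −0.0203 for Fdps, the stricter q 0.27 for Acly and −0.16 for Pmvk, and leaving out 1 library −0.0214 (25HC mouse A) to 0.33 (25HC mouse B) for Pmvk. For 25HC on average, Fads1 was 0.0048 with the stricter q and 0.0244 in the start window. Arm medians moved by more than the spread within groups in 37 of 238 fits, and bin counts by over 1.5 times in 5 of 24. Start windows use both gene ends for Stard4, Scd1, Scd2, Fads1, Fdps, Fdft1 and Sqle, whose strand is not used here. For Fdft1, the only called length in that window was part of the flank site that touches Ctsb. Its start-window values of −0.59 and −1.12 therefore describe that flank site and not the sites inside Fdft1. The lists give no read depth, so a shorter called length and a weaker library cannot be told apart.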
